A study of Xenopus tropicalis with 17 samples.

Results

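The 6 heart transcription factor genes nkx2-5, gata4, gata5, gata6, tbx5 and tbx20 were followed in Xenopus tropicalis, a diploid frog, in RNA of whole embryos null, heterozygous or wild type for sf3b4. The genes were taken by their names in the tables. All 6 of 6 were found among the 26531 genes of the count tables, and all 6 passed the filter on low counts that left 17821 genes for testing. sf3b4 encodes a protein of the SF3b complex, which recognises the branch site in splicing. Embryos were collected at stages 15, 25 and 35, and 5 embryos were pooled for each of the 17 RNA-seq libraries. At stages 25 and 35, 2 null pools, 2 heterozygous pools and 2 wild type pools were sequenced at each stage. At stage 15 there were 1 null pool, 2 heterozygous pools and 2 wild type pools. The labels name neither the sf3b4 mutation nor the strain or the clutch of the embryos, so p-values measure the spread between these pools.

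Heart muscle in vertebrates forms from a field of anterior mesoderm in which a small set of transcription factors is switched on together and keeps each other active. Nkx2-5 is a homeodomain protein, Gata4, Gata5 and Gata6 are zinc finger proteins that bind GATA sites, and Tbx5 and Tbx20 are T-box proteins. These factors bind the control regions of genes for heart muscle proteins, often in shared complexes. None of them is restricted to the heart. In frog embryos gata4, gata5 and gata6 are also active in endoderm, nkx2-5 in pharyngeal endoderm and tbx5 in the dorsal eye, and in vertebrates tbx20 is also active in cranial motor neurons. Whole-embryo RNA does not separate these sites, and fewer cells of a type cannot be told apart here from less RNA per cell.

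Library totals ran from 11714437 to 21639041 counts. Levels are given as CPM, the count scaled to the size of its library after TMM scaling. The pools of each replicated group differed by more than sampling noise and were counted separately. The second wild type pool of stage 15 stood apart from the other 4 libraries of its stage, with a first principal component score of -129 against -166 to -157. Null pools of stage 35 scored 128 and 135, against 150.5 to 156 in heterozygous and wild type pools at stage 35, and so lay nearer to stage 25. As a check of the labels, sf3b4 averaged 112 ± 2.14 CPM in null pools, 118 ± 10.6 in heterozygous pools and 146 ± 1.67 in wild type pools at stage 25 (SD, n = 2 each). At stage 35 it averaged 77.4 ± 3.70, 79.1 ± 20.6 and 95.3 ± 16.2 CPM in the same order of genotypes. At stage 15 it stood at 150.3 CPM in the null pool and averaged 199 ± 33.2 in heterozygous and 248 ± 53.0 in wild type pools. Null pools lay below wild type pools at each stage, and edgeR called sf3b4 at neither stage 25 nor stage 35. Null and heterozygous pools overlapped at stages 25 and 35 (log2 -0.08 and -0.03, edgeR adjusted p 0.952 and 0.957). The sf3b4 level therefore did not separate these 2 labels there. As a check of the tissue, the heart muscle genes myh6, myl7 and tnni3 were present in every group from stage 25 on, while nppa had 0 counts in every stage 25 pool. tnnt2, another heart muscle gene, had 0 counts in the null pools of stage 25 and 2 and 4 counts in the wild type pools of that stage.

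**Figure D1:**
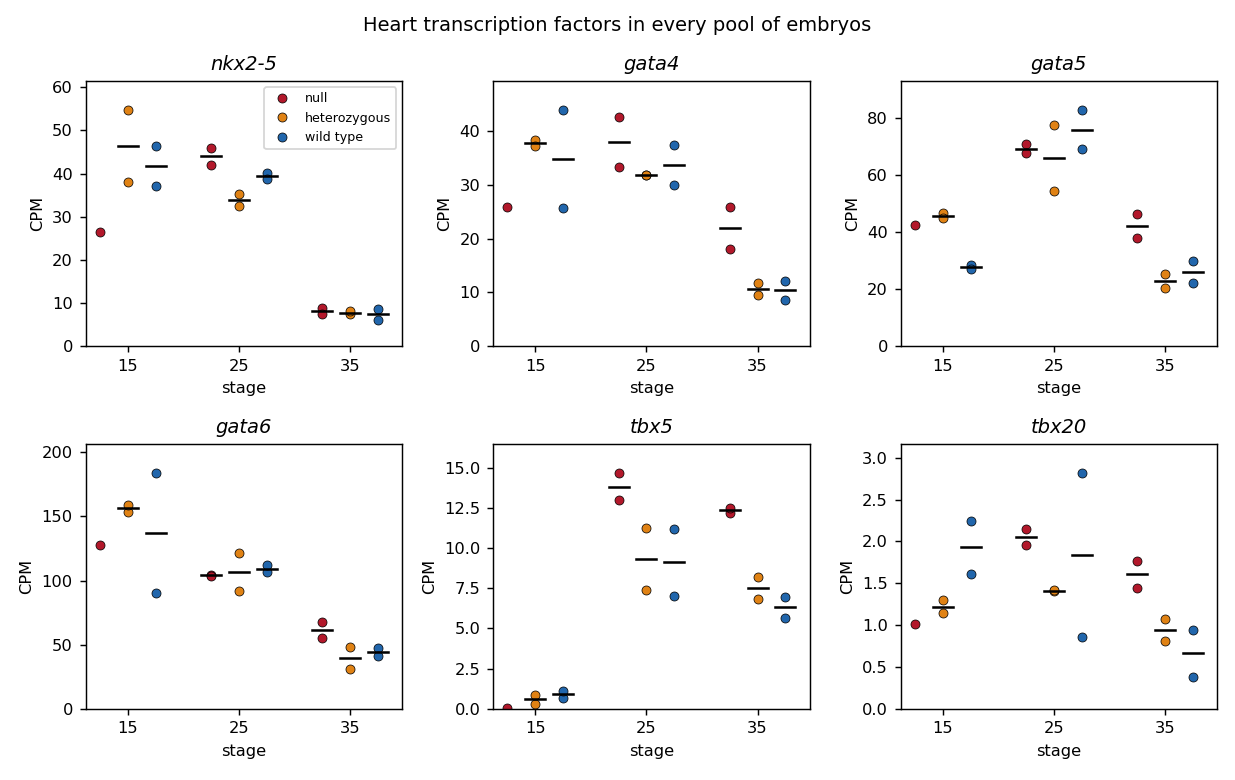
CPM (vertical axis, from 0) of the 6 genes in each of the 17 pools by stage, with null, heterozygous and wild type pools from left to right within a stage; each point is 1 pool and black bars are means of 2 pools. At stage 35 both null pools lie above both wild type pools in every panel except that of nkx2-5.

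The course in unaltered embryos is given first, because the null pools are read against it. In wild type pools at stages 15, 25 and 35, nkx2-5 averaged 41.7 ± 6.52, 39.4 ± 1.07 and 7.35 ± 1.83 CPM (SD, n = 2 each). Its pools of the neurula (stage 15) and of the tailbud embryo (stage 25) overlapped, and it was low in the tadpole (stage 35). gata4 showed a similar course, with 34.8 ± 12.9, 33.7 ± 5.23 and 10.4 ± 2.49 CPM. gata6 averaged 137 ± 66.2, 109 ± 4.21 and 44.2 ± 4.18 CPM.

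gata5 and tbx5 rose between the neurula and the tailbud stage. gata5 averaged 27.8 ± 1.14 CPM at stage 15, 76.0 ± 9.65 at stage 25 and 26.0 ± 5.51 at stage 35, so that its level peaked at stage 25. tbx5, whose product is needed for growth of the heart chambers, was at the edge of detection at stage 15 and present from stage 25 on, with 0.899 ± 0.287, 9.12 ± 2.95 and 6.32 ± 0.917 CPM. The stage 15 wild type libraries held 13 and 15 counts of it. tbx20 was counted rarely throughout, with 5 to 48 counts in any wild type library, and averaged 1.93 ± 0.447, 1.84 ± 1.38 and 0.662 ± 0.401 CPM.

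In the test of stage 25 against stage 15 in wild type pools, gata5 rose 2.73-fold (log2 1.45, SE 0.21, edgeR adjusted p 9.16e-05) and tbx5 rose 10.3-fold (log2 3.36, SE 0.41, edgeR adjusted p 2.18e-05). Among all genes tested, 23.4% were called higher in this comparison. The other 4 members were not called, and their 95% intervals on the log2 scale ran from -0.54 to 0.37 for nkx2-5, from -0.61 to 0.51 for gata4, from -0.89 to 0.24 for gata6 and from -1.26 to 1.11 for tbx20. The wild type pools of stage 15 differed most for gata6, with 184 and 90.0 CPM, and gata4, with 43.9 and 25.7 CPM. Without the second pool, which stood apart, gata6 was lower at stage 25 than at stage 15, with a log2 fold change of -0.75 (edgeR adjusted p 0.0143). Without the first, the estimates were 0.28 for gata6 and 0.39 for gata4 (edgeR adjusted p 0.421 and 0.329).

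Between stages 25 and 35, nkx2-5 and all 3 GATA genes fell in wild type pools. The fall was 2.42 on the log2 scale for nkx2-5 (SE 0.23, edgeR adjusted p 1.55e-06), which left 18.7% of its stage 25 level. gata4 fell by 1.69 (SE 0.28), gata5 by 1.54 (SE 0.21) and gata6 by 1.30 (SE 0.27), with edgeR adjusted p of 0.000172, 3.47e-05 and 0.00123. Of all genes tested, 22.5% were called lower and 24.5% higher in this comparison. Each of these 4 calls was also made under every alternative tried, including the removal of any 1 pool. tbx5 and tbx20 were not called, with log2 fold changes of -0.53 (SE 0.35) and -1.45 (SE 0.61) and edgeR adjusted p of 0.221 and 0.0639. For tbx20 the call depended on single pools: the edgeR adjusted p was 0.0157 without the second stage 25 wild type pool and 0.0498 without the first stage 35 wild type pool.

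Between stages 25 and 35, heterozygous pools gave similar values to wild type pools for nkx2-5 and the GATA genes. The fall in heterozygous pools was 2.12 on the log2 scale for nkx2-5, 1.59 for gata4, 1.54 for gata5 and 1.44 for gata6. All 4 were called (edgeR adjusted p 4.85e-06 to 0.000594), where 22.1% of all genes were called lower. tbx5 and tbx20 were not called there (log2 -0.31 and -0.57), beside -0.53 and -1.45 in wild type pools. At stage 25 against stage 15, gata5 had a smaller estimate than the 1.45 of wild type pools. Between these stages tbx5 rose by 3.84 on the log2 scale (SE 0.43, edgeR adjusted p 6.56e-06). For gata5 that rise was 0.53 (SE 0.20, edgeR adjusted p 0.0455, where 27.5% of all genes were called higher), and the call was lost without either stage 15 heterozygous pool, without the second stage 25 heterozygous pool (log2 0.25, edgeR adjusted p 0.439) and in DESeq2 (adjusted p 0.0841). gata6 was not called in that comparison (log2 -0.55, edgeR adjusted p 0.103) but was called lower without the filter on low counts (edgeR adjusted p 0.0323) and when only the groups compared were fitted (edgeR adjusted p 0.00419). nkx2-5 was not called there either (log2 -0.45, edgeR adjusted p 0.0994), but was called lower without the second stage 15 heterozygous pool (log2 -0.69, edgeR adjusted p 0.0454).

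Null embryos of stage 35 carried more gata4 and gata5 RNA than wild type embryos of that stage. gata4, a regulator of heart muscle genes and of heart field growth, stood at 25.9 and 18.1 CPM in null pools, against 12.2 and 8.64 CPM in wild type pools. The lowest null pool lay above the highest wild type pool, and the level was 2.12-fold higher (log2 1.08, SE 0.28, edgeR adjusted p 0.0226). gata5, which acts early in heart and endoderm formation, stood at 46.5 and 38.0 CPM in null pools, against 29.9 and 22.1 CPM in wild type pools. Again the groups did not overlap, and gata5 was 1.62-fold higher (log2 0.70, SE 0.21, edgeR adjusted p 0.0461). These were the 2 of 6 members called, both higher, where 4.75% of all genes were called higher and 4.97% lower. The call of gata4 was lost without the first null pool (log2 0.80, edgeR adjusted p 0.220) or without the second wild type pool (0.86, edgeR adjusted p 0.228). That of gata5 was lost without the first null pool (0.55, edgeR adjusted p 0.303), without the second null pool (0.84, edgeR adjusted p 0.103), without the second wild type pool (0.50, edgeR adjusted p 0.374) and when only the groups compared were fitted (0.70, edgeR adjusted p 0.0564).

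gata6, the third GATA gene of the heart and gut, had 67.8 and 55.1 CPM in null pools of stage 35, against 47.2 and 41.3 CPM in wild type pools. The groups did not overlap, but the difference of 0.47 on the log2 scale (95% interval -0.10 to 1.05) was not called (edgeR adjusted p 0.302). The T-box genes gave larger estimates with wider intervals. tbx5 had 12.2 and 12.5 CPM in null pools, against 5.67 and 6.97 CPM in wild type pools, a log2 fold change of 0.97 with a 95% interval of 0.23 to 1.70 and an edgeR adjusted p of 0.0919. It was called when only the groups compared were fitted (edgeR adjusted p 0.0347). tbx20 had 1.77 and 1.45 CPM in null pools, against 0.945 and 0.379 CPM in wild type pools, from 30 and 20 counts against 14 and 5 counts. Its log2 fold change was 1.26 with a 95% interval of -0.06 to 2.58 (edgeR adjusted p 0.227).

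nkx2-5 was the only member whose null and wild type pools overlapped at stage 35. It had 8.72 and 7.52 CPM in null pools of stage 35, against 8.64 and 6.06 CPM in wild type pools. The log2 fold change was 0.14 with a 95% interval of -0.36 to 0.64 (edgeR adjusted p 0.761), so a rise as large as the estimate for gata4 lay outside the interval. The interval of gata4 itself, 0.50 to 1.67, overlapped that of nkx2-5, and no test compared these genes. Over the 6 members both null pools lay above both wild type pools for 5, where 27.6% of all genes showed such a separation. All 6 log2 fold changes were positive, with a median of 0.83, beside -0.04 over all genes tested.

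**Figure D2:**
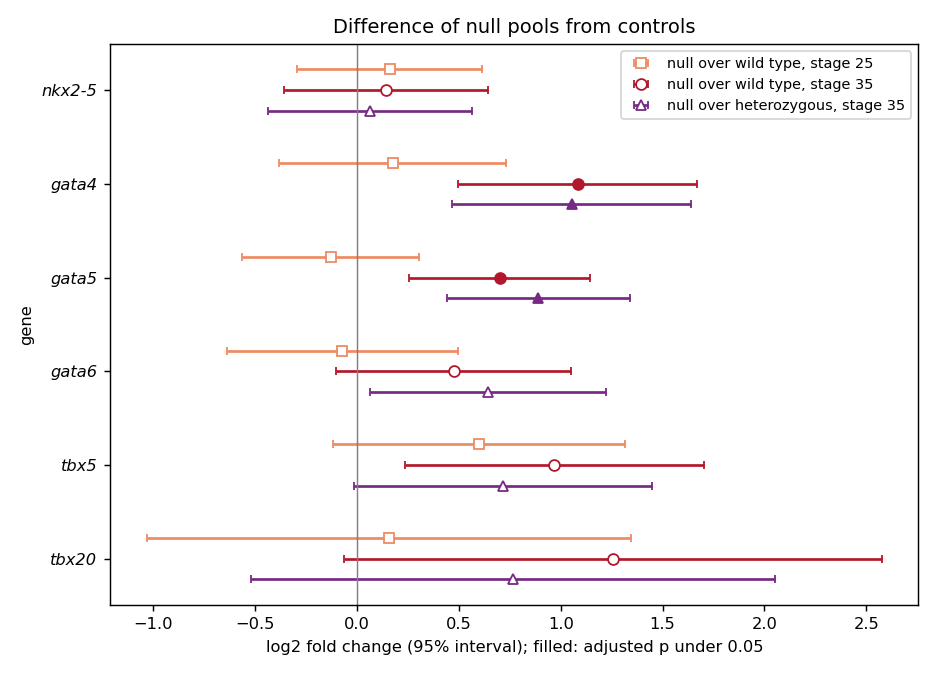
Log2 fold change (horizontal axis) of null pools over wild type pools at stages 25 and 35 and over heterozygous pools at stage 35 for the 6 genes (vertical axis); bars are 95% intervals from edgeR, n = 2 pools a group, and filled symbols have an adjusted p under 0.05. gata4 and gata5 are filled at stage 35 against both control genotypes, at 1.08 and 0.70 over wild type.

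Heterozygous pools of stage 35 served as the other control of the same null pools, so these 2 sets of values share the null libraries. gata4 had 9.46 and 11.8 CPM in heterozygous pools, and null pools were higher by 1.05 on the log2 scale (SE 0.28, edgeR adjusted p 0.0328). gata5 had 20.3 and 25.4 CPM in heterozygous pools, and null pools were higher by 0.89 (SE 0.21, edgeR adjusted p 0.0198). Again these 2 of 6 were called, where 3.28% of all genes were called higher. Both calls were lost without the first heterozygous pool (edgeR adjusted p 0.261 and 0.203), the first null pool (0.295 and 0.182) or the second null pool (0.0596 for each), and that of gata4 also without the second heterozygous pool (0.0825), among the fits that left out 1 pool. gata6 had 30.8 and 47.9 CPM in heterozygous pools and was not called (log2 0.64, edgeR adjusted p 0.183). tbx5 had 8.23 and 6.80 CPM there (log2 0.72, edgeR adjusted p 0.248), tbx20 had 1.08 and 0.810 CPM (log2 0.77, edgeR adjusted p 0.516), and nkx2-5 had 7.46 and 8.10 CPM (log2 0.06, edgeR adjusted p 0.917). Both null pools lay above both heterozygous pools for 5 of the 6 genes, where 24.8% of all genes did so.

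At stage 25 edgeR called 0 of the 6 members between null and wild type pools, and 0 had an unadjusted p under 0.05, where 1.77% of all genes were called in either direction. DESeq2 also called 0. tbx5 had the largest estimate, with 14.7 and 13.0 CPM in null pools, against 7.04 and 11.2 CPM in wild type pools. Both null pools lay above both wild type pools, and the log2 fold change was 0.60 with a 95% interval of -0.12 to 1.32 (edgeR adjusted p 0.474). nkx2-5 stood at 42.1 and 46.0 CPM in null pools, against 40.2 and 38.7 CPM in wild type pools (log2 0.16, 95% interval -0.29 to 0.61). Both null pools lay above both wild type pools for these 2 genes, where 20.4% of all genes did so and 21.9% had both null pools below.

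The GATA genes of stage 25 had estimates near 0. gata4 had 33.4 and 42.6 CPM in null pools, against 30.0 and 37.4 CPM in wild type pools. gata5 had 70.9 and 68.0 CPM in null pools, against 69.2 and 82.8 CPM in wild type pools. The estimates were 0.17 for gata4 and -0.13 for gata5 on the log2 scale, and the groups overlapped for both. gata6 had 104 and 103 CPM in null pools, against 106 and 112 CPM in wild type pools (log2 -0.07, 95% interval -0.64 to 0.49). Its null pools lay just below the wild type pools at stage 25 and above them at stage 35. tbx20 had 1.96 and 2.15 CPM in null pools, between the 2.82 and 0.862 CPM of the wild type pools. Against heterozygous pools of stage 25, edgeR and DESeq2 called 0 members (log2 -0.04 to 0.56, edgeR adjusted p 0.614 to 0.988, unadjusted p of 0.0965 or more), where edgeR called 0.0673% of all genes. That share stands for 12 genes, and 174 were called with DESeq2 and 149 without the filter on low counts. Both null pools lay above both heterozygous pools for 4 of 6, where 19.2% of all genes did so.

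The null effect at stage 35 was then set against that at stage 25 in an interaction test. That difference was 0.91 for gata4 (SE 0.38, unadjusted p 0.0298), 0.83 for gata5 (SE 0.29, unadjusted p 0.0119) and 0.55 for gata6 (SE 0.38), but edgeR and DESeq2 called 0 of the 6 (edgeR adjusted p 0.377 to 0.9999), where 0.146% of all genes were called. The appearance of a call at stage 35 and not at stage 25 is therefore not shown to be a difference between the stages. Averaged over both stages, null pools were higher in gata4 (log2 0.63, SE 0.19, edgeR adjusted p 0.0408) and in tbx5 (log2 0.78, SE 0.24, edgeR adjusted p 0.0442), which made 2 of 6 members called higher where 5.95% of all genes were. The call of tbx5 was lost when any 1 pool was left out other than the second wild type pool of stage 25 (edgeR adjusted p 0.0748 to 0.169). That of gata4 was lost without the second stage 25 null pool, either stage 25 wild type pool, the first stage 35 null pool or the second stage 35 wild type pool (edgeR adjusted p 0.0559 to 0.186).

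In null pools nkx2-5 and the GATA genes also fell between stages 25 and 35. The fall of nkx2-5 was 2.44 on the log2 scale (SE 0.23, edgeR adjusted p 1.92e-06), which left 18.4% of the stage 25 level in null pools, against 18.7% in wild type pools. For gata4 the fall was 0.79 (SE 0.27, edgeR adjusted p 0.0259), with 57.9% left in null pools, against 30.8% in wild type pools. gata5 fell by 0.71 (SE 0.21, edgeR adjusted p 0.0111), with 60.9% left in null pools, against 34.2% in wild type pools. gata6 fell by 0.76 (SE 0.27, edgeR adjusted p 0.0322), with 59.1% left in null pools, against 40.5% in wild type pools. These 4 of 6 members were called lower, as in wild type pools, where 21.1% of all genes were called lower and 22.9% higher in null pools. tbx5 and tbx20 were not called between the stages in null pools (log2 -0.16 and -0.35, edgeR adjusted p 0.722 and 0.639).

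The test of these falls between genotypes is the test of the difference of the null effects given above, which called none. The calls of gata4, gata5 and gata6 in null pools depended on single libraries. Without the second stage 35 null pool all 3 were lost (edgeR adjusted p 0.216, 0.112 and 0.189), without the second stage 25 null pool those of gata4 and gata6 (0.170 and 0.0926), and without either first pool that of gata6 (0.0917 and 0.0582), which was also lost with DESeq2 size factors (0.0539). In level, null pools of stage 35 stood between the wild type pools of stages 25 and 35 for all 3 GATA genes. For gata4 they averaged 22.04 CPM, against 33.7 CPM in stage 25 and 10.4 CPM in stage 35 wild type pools. tbx5 did not share this order. Its null pools of stage 35, at 12.2 and 12.5 CPM, lay above the wild type pools of both stages (7.04 and 11.2 CPM at stage 25). The share of all genes with such an in-between level was not counted. The same null pools lay nearer to stage 25 on the first principal component, and the part of that shift in these differences was not tested.

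**Figure D3:**
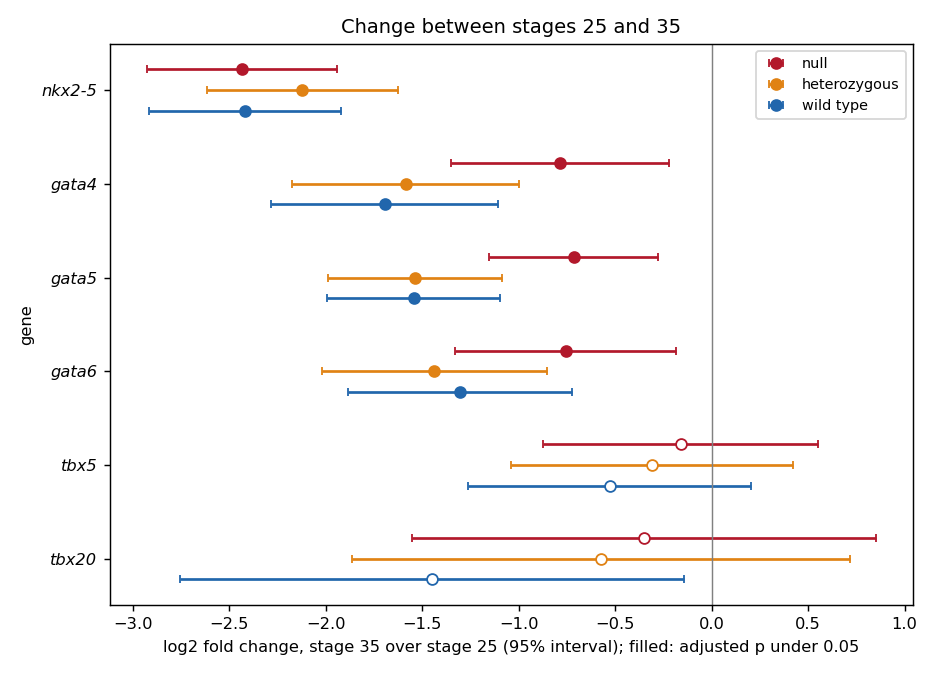
Log2 fold change of stage 35 over stage 25 (horizontal axis) within null, heterozygous and wild type embryos for the 6 genes (vertical axis); bars are 95% intervals from edgeR, n = 2 pools a group, and filled symbols have an adjusted p under 0.05. nkx2-5 lies between -2.44 and -2.12 in the 3 genotypes, while the GATA genes lie between -0.79 and -0.71 in null pools and between -1.69 and -1.30 in heterozygous and wild type pools.

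Heterozygous embryos were compared with wild type at each stage. edgeR called 0 of the 6 members at stages 15, 25 and 35, with 1, 0 and 0 members at an unadjusted p under 0.05, where 0% of all genes were called at stages 15 and 25 and 0.00561% at stage 35 by edgeR. At stage 15 the calls over all genes numbered 428 without the first wild type pool and 60 without the filter on low counts, in place of 0. DESeq2 called 0 members too. The one member with a low unadjusted p was gata5 at stage 15 (0.00337). It had 46.7 and 45.0 CPM in heterozygous pools, against 28.6 and 27.0 CPM in wild type pools, without overlap (log2 0.72, SE 0.21, edgeR adjusted p 0.813, and 0.155 to 1 over the alternatives). Both heterozygous pools lay above both wild type pools at that stage for 1 of 6 members, where 8.21% of all genes did so, and below for 1, tbx20, where 12.5% did. At stages 25 and 35 the gata5 estimates were -0.20 and -0.19, and its pools overlapped. The heterozygous estimates of the other members ran from -0.67 to 0.49 on the log2 scale over the stages, with the extremes in tbx20, the gene of the lowest counts.

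The single null pool of stage 15 has no replicate and was not tested. gata5 stood at 42.7 CPM in it, close to the heterozygous pools and above both wild type pools. nkx2-5 stood at 26.4 CPM, below the heterozygous pools (54.6 and 38.0 CPM) and the wild type pools (46.3 and 37.1 CPM). gata4 at 26.0 CPM and gata6 at 127 CPM lay between the wild type pools. The library held 1 count of tbx5, against 4 and 17 counts in heterozygous and 13 and 15 counts in wild type libraries, and 13 counts of tbx20, against 16 and 22 counts in heterozygous and 42 and 22 in wild type libraries. Relative to the mean of the wild type pools on the log2 CPM scale, 5 of the 6 genes were lower in the null pool. This count was 3 against the second wild type pool alone, which stood apart. Against each heterozygous pool every member was lower in the null pool, with log2 differences of -0.56 and -0.52 for gata4 and -0.13 and -0.07 for gata5. For gata6 the log2 difference from the wild type mean was -0.01. The share of all genes lower in this library was not counted, so these counts do not set the members apart from other genes.

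Ranked by mean CPM over the 9 groups of stage and genotype, the members fell into different orders. The 3 lowest groups were those of stage 35 for nkx2-5, with overlapping pools. For gata4 the heterozygous and wild type groups of stage 35 were the lowest and overlapped, and the null group of stage 35 came next above them without overlap. gata5 was highest in the 3 groups of stage 25, which overlapped with each other but not with the next group. Its stage 35 null group stood beside the stage 15 null pool. By mean, gata6 was highest at stage 15 and lowest at stage 35 in every genotype. Its wild type pools of stage 15, at 184 and 90.0 CPM, overlapped with those of stage 25, at 106 and 112 CPM. tbx5 was highest in null pools of stage 25, then in null pools of stage 35, with no overlap between these groups or with the next, and lowest in the 3 groups of stage 15. The tbx20 ranking put null pools of stage 25 first and wild type pools of stage 35 last. Neighbours within its upper 4 groups overlapped, and the lowest of these 4 did not overlap with the next group.

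Other regulators of heart formation were counted from a list of 26 genes, of which 25 were in the tables and 24 were tested. In null against wild type pools of stage 35, 5 were called higher and 2 lower, with a median log2 fold change of 0.15, where 4.75% of all genes were called higher and 4.97% lower and their median was -0.04. tbx3, a T-box gene active in the conduction system and many other sites, was higher by 0.94 (SE 0.20, edgeR adjusted p 0.00893). tbx1, a regulator of the pharyngeal arches and the second heart field, was higher by 0.87 (edgeR adjusted p 0.0111). The signals fgf8 (0.77), bmp4 (0.61) and wnt11 (0.78), which act in heart induction and in many other tissues, were also called higher (edgeR adjusted p 0.0227, 0.0286 and 0.0298). irx4, a homeobox gene of the ventricle, was lower by 1.10, with 5.32 ± 0.445 CPM in null pools and 11.4 ± 0.535 CPM in wild type pools (SD, n = 2 each, edgeR adjusted p 0.0459). nkx2-3, a relative of nkx2-5 active in the heart and pharynx of frogs, was lower by 0.83, with 8.81 ± 0.799 CPM in null pools and 15.6 ± 0.699 CPM in wild type pools (edgeR adjusted p 0.0452). hand2, a basic helix-loop-helix factor of the heart, had 80.0 ± 1.84 CPM in null pools and 54.8 ± 19.4 CPM in wild type pools and was not called (edgeR adjusted p 0.200). In wild type embryos tbx3, tbx1, fgf8, bmp4 and wnt11 were called lower at stage 35 than at stage 25, and irx4 was called higher. Of the 24 genes of the list, 11 were called lower and 2 higher in this stage comparison. Among all genes, 22.5% were called lower and 24.5% higher there. nkx2-3 averaged 21.8 CPM at stage 25 and 15.6 CPM at stage 35 in wild type pools. Its null pools of stage 35 thus lay below the wild type pools of both stages. DESeq2 called the same 7 genes. Against heterozygous pools of stage 35, edgeR called 3 of the 24 higher and 1 lower in null pools, with a median of 0.03. Of all genes, 3.28% were called higher and 3.69% lower there, and their median was -0.05. DESeq2 called 5 in that comparison, namely bmp4, fgf8, nkx2-3, tbx1 and tbx3, but neither irx4 nor wnt11. At stage 25 edgeR and DESeq2 called 0 of the 24 between null and wild type pools, and 3 had an unadjusted p under 0.05.

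Heart muscle genes, which include targets of the 6 factors, were counted from a list of 18, of which 17 were in the tables and tested. edgeR and DESeq2 called 0 between null and wild type pools at stages 25 and 35, where 1 and 3 had an unadjusted p under 0.05, with median log2 fold changes of 0.17 and -0.24. Of all genes, edgeR called 1.77% at stage 25 and 9.72% at stage 35 in either direction. At stage 35 the heart myosin gene myh6 had 120 ± 0.127 CPM in null pools and 141 ± 8.41 CPM in wild type pools (log2 -0.24, edgeR adjusted p 0.630). The atrial light chain gene myl7 had 32.5 ± 2.95 CPM in null pools and 45.3 ± 2.11 CPM in wild type pools (log2 -0.48, edgeR adjusted p 0.388). tnni3, for cardiac troponin I, had 39.1 ± 2.81 and 31.97 ± 1.49 CPM in null and wild type pools (log2 0.29, edgeR adjusted p 0.500). In wild type embryos 9 of the 17 were called higher and 3 lower at stage 35 than at stage 25, where 24.5% of all genes were called higher and 22.5% lower. The 3 were tnnc1, myl4 and mybpc3 (log2 -1.22, -1.21 and -0.71). myl7 rose by 4.44 on the log2 scale, myh6 by 2.85 and tnni3 by 1.77, and nppb was at least 31.96-fold higher, a bound taken at 3 counts per library because the stage 25 pools held 0 and 1 counts. In null embryos 7 of the 17 were called higher and 4 lower, where 22.9% and 21.1% of all genes were, with rises of 4.14 for myl7, 2.43 for myh6 and 2.18 for tnni3. The list median of stage 35 against stage 25 was 0.06 in null, 1.95 in heterozygous and 1.77 in wild type pools. The list holds rising and falling genes, and 9 of 17 estimates were positive in null, 11 in heterozygous and 10 in wild type pools. The null median was thus the smallest of its positive estimates. Gene by gene, the null effect at stage 35 minus that at stage 25 had a list median of -0.30, beside -0.02 over all genes. There 7 of 17 estimates were positive and edgeR called 0. The cardiac actin gene actc1, which frog embryos also use in skeletal muscle, stood at 2749 to 3008 CPM in null pools and 2032 to 2240 CPM in wild type pools of stage 35 and was not called (log2 0.43, edgeR adjusted p 0.149). The other 16 genes summed to 714 to 755 CPM in null pools and 692 to 696 CPM in wild type pools. In null against heterozygous pools of stage 35, edgeR called 1 of the 17, which was lower, where 3.69% of all genes were called lower. It was the ventricular light chain gene myl2 (log2 -2.93, edgeR adjusted p 0.0188). myl2 had 0.548 ± 0.0589 CPM in null pools and 4.25 ± 0.624 CPM in heterozygous pools (SD, n = 2 each). The list median was -0.47 there, 6 of 17 estimates were positive, and DESeq2 also called myl3 and myl7.

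**Figure D4:**
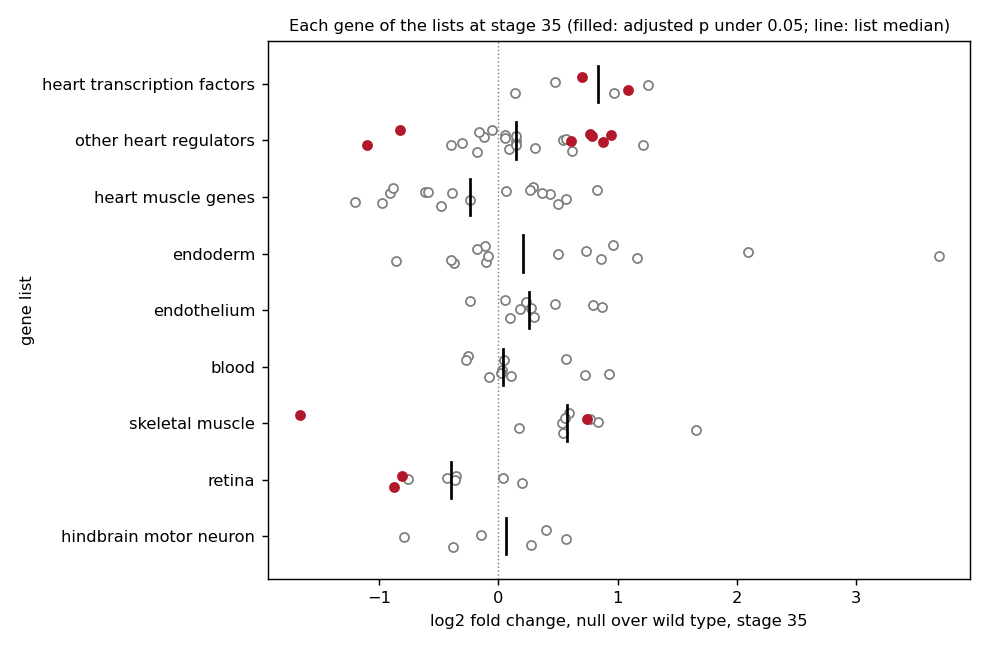
Log2 fold change of null over wild type pools at stage 35 (horizontal axis) for each tested gene of 9 lists (vertical axis, points spread vertically for legibility); filled points have an edgeR adjusted p under 0.05 and black lines are list medians. The 6 heart transcription factors all lie right of 0 with a median of 0.83, and heart muscle genes lie on both sides with a median of -0.24 and no filled point.

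Markers of the other cell types that express the 6 genes, or that share the embryo with them, were counted in the same comparison. Of 14 endoderm genes edgeR called 0 between null and wild type pools at stage 35 (median 0.21, 3 with an unadjusted p under 0.05), and the summed level of the list was 390 to 439 CPM in null pools and 430 to 654 CPM in wild type pools. DESeq2 called 1 of the 14. hhex, a regulator of gut and liver, had a log2 fold change of 0.86 with an edgeR adjusted p of 0.0882. sox17b.2 had 0 counts in wild type pools of stage 35. In null against heterozygous pools of stage 35, edgeR called 0 of the 14 and DESeq2 called 1, with 2 at an unadjusted p under 0.05. There 11 of 14 estimates were positive, with a median of 0.63, beside -0.05 over all genes, and the summed level was 390 to 439 CPM in null pools and 287 to 526.5 CPM in heterozygous pools. The part of these endoderm values in the GATA gene differences was not tested. In wild type embryos 11 of the 14 were called lower and 2 higher at stage 35 than at stage 25, where 22.5% of all genes were called lower and 24.5% higher. Among 8 retina genes, six3 and vax2 were called lower in null than in wild type pools of stage 35 (log2 -0.81 and -0.88, edgeR adjusted p 0.0268 and 0.0353). Of all genes, 4.75% were called higher and 4.97% lower in that comparison. The retina list had a median of -0.40, with 2 of 8 estimates positive. Its summed level was 220 to 241 CPM in null pools and 267 to 301 CPM in wild type pools. Against heterozygous pools of stage 35, edgeR called 2 of the 8 lower, where 3.69% of all genes were, and DESeq2 called six3 and vax2. Of 6 genes of hindbrain motor neurons edgeR and DESeq2 called 0 (1 with an unadjusted p under 0.05, median 0.07, summed level 42.4 to 45.1 CPM in null pools and 47.7 to 52.7 CPM in wild type pools).

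At stage 25 edgeR called 0 genes of these and the following lists between null and wild type pools, with 0 to 3 per list at an unadjusted p under 0.05, and DESeq2 called myf5 of the skeletal muscle list. Among tissues beside the heart at stage 35, 10 skeletal muscle genes had a median of 0.58 in null against wild type pools. Of all genes, 4.75% were called higher and 4.97% lower in that comparison. In this list mylpf was called higher and myog lower (log2 0.74 and -1.66, edgeR adjusted p 0.0277 and 0.0414). DESeq2 called both and also tnni2. The summed level of the 10 genes was 5912 to 6323 CPM in null pools, against 3407 to 4125 CPM in wild type pools. edgeR and DESeq2 called 0 of 10 endothelium genes (1 with an unadjusted p under 0.05, median 0.25, summed level 347 to 387 CPM in null pools and 270 to 279 CPM in wild type pools) and 0 of 10 tested blood genes (0 with such a p, median 0.04, summed level 3951 to 4230 CPM in null pools and 1889 to 3176 CPM in wild type pools). Over all genes the median was -0.04. In heterozygous pools of stage 35 the blood list summed to 2232 to 5636 CPM, a range that holds the null values. The skeletal muscle and endothelium lists summed to 4084 to 5123 CPM and 277 to 295 CPM there, below the null pools. For null against these heterozygous pools, edgeR called 0 of the 10 skeletal muscle genes higher and 1 lower, with a median of 0.39. Of all genes, 3.28% were called higher and 3.69% lower there. DESeq2 called only myog of this list. The part of these values in the gata4 and gata5 differences was not tested.

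The genes whose pattern was most like that of each member were found over all 17 libraries by Pearson's r of log2 CPM, among 11849 named genes with a mean log2 CPM of at least 1. For tbx20, which itself lay under that mean, 11850 such genes were compared. These libraries share stage and genotype, so the values describe a shared course and no more. nkx2-5 was followed most closely by hoxc5 (r = 0.98), eno1 (0.98) and mfge8 (0.98). Among the nearest to gata4 were slc12a2 (0.96) and ebna1bp2 (0.96). The nearest to gata5 were mga (0.92), fucolectin (0.89) and trarg1 (0.89), and those to gata6 were szl (0.96), foxa1 (0.96) and rbmx (0.96). foxa1 is a forkhead factor of the endoderm. tbx5 was closest to mlf1 (0.98), hspb1 (0.97) and ptk6 (0.97), and tbx20 to cyp26c1 (0.81), sprtn (0.81) and fst (0.79).

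With the mean of each stage subtracted, so that genotype and pool differences remain, other genes came first. gata4 was closest to h6pd (0.93), klf6 (0.93) and rpe (0.93), and gata5 to rpe (0.85), bambi (0.84) and muc1 (0.81). gata6 was closest to arl5c (0.88), hhex (0.86) and bambi (0.84), of which bambi encodes an inhibitor of BMP signalling. tbx5 was closest to ocm4.5 (0.87), plat (0.86) and ocm4.3 (0.84), nkx2-5 to ppp1r3c.1 (0.86), tmem129 (0.80) and igf3 (0.79), and tbx20 to usp9x (0.89), abhd13 (0.86) and ireb2 (0.85). The tbx20 values rest on 5 to 48 counts a library, and the part of counting noise in them was not tested. Among the members themselves, the stage-centred r was highest within the GATA genes, at 0.80 for gata4 and gata6, 0.71 for gata5 and gata6 and 0.68 for gata4 and gata5. The other pairs ran from 0.02 for gata5 and tbx5 to 0.57 for nkx2-5 and gata4.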

How the data were processed

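Stranded, polyA-selected RNA-seq libraries were made from pools of 5 whole embryos, per the labels' protocols. The authors deposited raw read counts per gene, 1 table per library, which were whole numbers with totals of 11714437 to 21639041. bcl2fastq version 2.20 and STAR are named in the submitters' processing notes. The counting program, genome build, annotation and use of strand in counting are not given in the sources used here. Without strand, reads of overlapping transcripts cannot be separated. In a RefSeq table of another source, UCB_Xtro_10.0, gata5 overlaps 2 non-coding RNAs and 2 miRNA genes and tbx5 overlaps 1 non-coding RNA. The table was used for names and neighbours only.

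Genes were kept by filterByExpr (minimum count 10, minimum total 15), libraries scaled by TMM over all 17, and 14 comparisons tested with edgeR version 4.0.16 (R version 4.3.3), glmQLFit and glmQLFTest. The model held a mean per group over the 8 groups of 2 pools (16 libraries, 8 residual and 7.38 prior degrees of freedom, biological coefficient of variation 20.7%). All tests are two-sided, with Benjamini-Hochberg adjustment over the 17821 genes of a comparison and calls made under 0.05. SE and 95% intervals were derived from the test statistic. Log2 CPM used a prior count of 2. The stage 15 null library entered no test. Alternatives were DESeq2 version 1.42.0, DESeq2 size factors, no filter, only the groups compared, a replicate block and each pool left out, where a lone pool was assumed to vary like the other groups. Scripts were tested on simulated data.

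All 6 members were named. Of other lists, up to 4 called genes per direction were to be named, by adjusted p. For stage comparisons this was done only for the heart lists, in part, with uncalled genes (hand2, hhex, myh6, myl7, tnni3) and wnt11 added after their values were seen. For each member, the 3 genes of highest r with a mean log2 CPM of at least 1 were taken. Some genes these rules select are not reported here. Members and lists were chosen with earlier results of these data known. Absent from the tables under the names searched were nkx2-10, ryr2 and klf1. Reads are not independent molecules.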

Additional observations from a re-analysis of the deposited data

How the results depend on the processing

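The calls of nkx2-5, gata4, gata5 and gata6 between stages 25 and 35 in wild type and heterozygous pools, and of gata5 and tbx5 between stages 15 and 25 in wild type pools, kept direction and call under every alternative run. For the heterozygous rise from stage 15 to 25, 1 member was called in place of 2 with DESeq2, with DESeq2 size factors and under the replicate block.

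Replicate numbers were shared by the groups of a stage, but same-numbered pools did not deviate together (r -0.365 to 0.0994), so the samples share only a number. With the replicate block, members called went to 1 for null against wild type at stage 35, to 0 for null against heterozygous at stage 35 and to 1 for the mean null effect, from 2 in each case without the block. The calls lost were those of gata5 (edgeR adjusted p 0.0815), of gata4 and gata5 (0.0590 and 0.0504) and of gata4 (0.0551). Over all genes, calls under the block numbered 68 in place of 315 at stage 25 and 1002 in place of 1732 at stage 35 for null against wild type. With crossed numbers, calls were 0, 1 and 65, against 0, 1 and 12 without a block, for heterozygous against wild type at stages 15 and 35 and null against heterozygous at stage 25; this pairing was chosen after seeing the data.

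With 1 pool left out, members called ranged from 0 to 2 for null against wild type at stage 35, from 0 to 1 for null against heterozygous at stage 35 and for the mean null effect, from 1 to 2 for the heterozygous comparison of stages 25 and 15, and from 1 to 3 for null pools between stages 25 and 35. Members below the wild type level in the stage 15 null library were 3 rather than 5 against the second wild type pool.

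Over all genes, calls for null against wild type at stage 25 numbered 674 with DESeq2, 584 without the filter and 102 with only the groups compared, and 2 to 160 with 1 pool left out. Calls for the difference of the null effects numbered 155 with DESeq2 and 239 without the filter, in place of 26. At stage 35 null against wild type had 370 to 521 calls without the first null, second null or second wild type pool.

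The estimates that changed sign all did so with 1 pool left out, all for effects that were not called, and the cause was not tested. For heterozygous against wild type the log2 range was -0.13 to 0.39 for nkx2-5, -0.21 to 0.56 for gata4 and -0.23 to 0.79 for gata6 at stage 15. At stage 25 it was -0.23 to 0.089 for gata4, -0.48 to 0.036 for gata5, -0.25 to 0.15 for gata6, -0.30 to 0.41 for tbx5 and -0.99 to 0.71 for tbx20. At stage 35 it was -0.15 to 0.36 for nkx2-5, -0.19 to 0.30 for gata4, -0.39 to 0.045 for gata5, -0.52 to 0.11 for gata6 and -0.0015 to 1.30 for tbx20. For null against wild type it was -0.012 to 0.34 for gata4, -0.25 to 0.0053 for gata5 and -0.45 to 1.25 for tbx20 at stage 25, and -0.088 to 0.42 for nkx2-5 at stage 35. For null against heterozygous it was -0.17 to 0.35 for gata5 and -0.22 to 0.18 for gata6 at stage 25 and -0.049 to 0.17 for nkx2-5 at stage 35. Between stages 15 and 25 in wild type pools it was -0.23 to 0.088 for nkx2-5, -0.38 to 0.39 for gata4, -0.75 to 0.28 for gata6 and -1.16 to 0.53 for tbx20. tbx5 ranged from -0.58 to 0.019 between stages 25 and 35 in heterozygous pools. The difference of the null effects ranged from -0.25 to 0.26 for nkx2-5 and -0.0045 to 0.67 for tbx5.

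Depth limits tbx20, at 5 to 48 counts a library, and tbx5 at stage 15.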

Other observations

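In the RefSeq assembly UCB_Xtro_10.0 the protein-coding genes on either side of the members are stc2 and bnip1 for nkx2-5, neil2 and blk for gata4, rbbp8nl and slco4a1 for gata5, tbx3 and rbm19 for tbx5, and herpud2 and yae1 for tbx20. One neighbour of gata6 is rbbp8, a DNA end resection factor. Of the neighbours tested, tbx3 beside tbx5 was called higher in null than in wild type pools at stage 35 (log2 0.94, edgeR adjusted p 0.00893). There 4.75% of all genes were called higher, and tbx5 itself had a log2 fold change of 0.97 without a call. rbm19, on the other side of tbx5, had a log2 fold change of 0.07 (edgeR adjusted p 0.841). At stage 25 rbbp8 was called lower in null pools (log2 -0.79, edgeR adjusted p 0.0318), where gata6 had a log2 fold change of -0.07 and 0.982% of all genes were called lower. The other tested neighbours were called at neither stage.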
